A study of Mus musculus with 17 samples.

Results

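RNA polymerase II regions that resting macrophages held at the start or end of a gene, and that were largely missing after stimulation with R837, numbered 1046. They came from peak summits, the single base of highest signal in each called peak, of polymerase II chromatin immunoprecipitation and sequencing (ChIP-seq) in mouse bone marrow-derived macrophages. Summits of all 16 libraries were pooled, and neighbours up to 500 bp apart were chained into 47904 regions. Of these, 13171 had their midpoint within 1 kb of the start or end of a protein-coding gene, here called gene-boundary regions, and 6713 of the 13171 held a summit in each of the 4 untreated libraries. A held region was called lost when at most 2 of the 12 R837 libraries had a summit in it. The lost regions were 15.6% of the held regions. They were linked to 1122 genes, or 15.4% of the 7288 genes with a held gene-boundary region. The regions were thus chosen by the presence of summits before and after R837 in these same libraries, so their loss is a description and was not tested.

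The study combined 2 genotypes, WT and N4bp1 KO, with 4 conditions, untreated or R837 (imiquimod, a TLR7 agonist) for 2 h, 4 h or 6 h, and each of the 8 groups had 2 libraries. N4BP1 is a cytosolic protein known to restrain inflammatory cytokine responses, and both genotypes entered the definition of a lost region with equal weight. The labels used here name no part of N4bp1 that was removed. N4bp1 carried no lost region, and summits lay in the gene in every KO library, so these lists give no check of the genotype. Of 10 macrophage marker genes, 7 had a held gene-boundary region (Lyz2, Csf1r, Cd68, Itgam, Fcgr1, C1qb and Mertk), against 2 marker genes of 7 other cell types (Cd3d and Xcr1).

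Polymerase II initiates at the gene start, commonly pauses a short distance downstream, and slows again past the polyadenylation site, so a summit near a gene boundary can mark either a promoter or a termination zone. Macrophages sense single-stranded RNA and imidazoquinolines through TLR7, which signals through MyD88 to NF-kB and MAP kinases. Toll-like receptor stimulation is known to switch on inflammatory genes and to lower transcription of many genes of the resting state, cell cycle genes among them.

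Promoter sequence shows where the resting polymerase summits of Hgf lay and what surrounds them. The 250 bases before the RefSeq gene start (GRCm38.p6, 5′ to 3′ along the gene) are given for Hgf at chr5:16553245-16553494 (plus strand), among the 24 highest-ranked lost regions. It is shown because all 4 untreated summits fell inside the window, and the capitals mark the 44 bases from the first to the last of them.
Hgf: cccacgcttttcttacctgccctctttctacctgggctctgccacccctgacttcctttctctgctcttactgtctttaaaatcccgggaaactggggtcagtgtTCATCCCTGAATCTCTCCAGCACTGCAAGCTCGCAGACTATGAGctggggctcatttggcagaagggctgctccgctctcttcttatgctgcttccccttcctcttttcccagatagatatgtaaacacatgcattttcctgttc
In Hgf the 4 libraries placed the summit between 145 and 102 bases before the start.

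A second set is shown for the short motifs they hold. Hhex, at chr19:37434591-37434840 (plus strand), and Nceh1, at chr3:27182754-27183003 (plus strand), were among the 24 highest-ranked lost regions, and Mcm2, at chr6:88898781-88899030 (minus strand), Mcm3, at chr1:20820313-20820562 (minus strand), Mcm6, at chr1:128359706-128359955 (minus strand), and Msh6, at chr17:87974800-87975049 (plus strand), belong to DNA replication and mismatch repair. Capitals mark every match, on either strand, to the CCAAT box (CCAAT), the GC box (GGGCGG), the E-box (CACGTG), the PU.1 motif (GAGGAAGT) or the E2F motif (TTTGGCGC or GGCGGGAA).
Hhex: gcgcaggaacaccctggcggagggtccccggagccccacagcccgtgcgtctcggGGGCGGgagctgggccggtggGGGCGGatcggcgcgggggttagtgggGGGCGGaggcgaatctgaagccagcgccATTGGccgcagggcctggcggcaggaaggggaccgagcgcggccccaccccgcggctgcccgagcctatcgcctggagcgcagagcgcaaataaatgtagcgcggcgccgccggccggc
Nceh1: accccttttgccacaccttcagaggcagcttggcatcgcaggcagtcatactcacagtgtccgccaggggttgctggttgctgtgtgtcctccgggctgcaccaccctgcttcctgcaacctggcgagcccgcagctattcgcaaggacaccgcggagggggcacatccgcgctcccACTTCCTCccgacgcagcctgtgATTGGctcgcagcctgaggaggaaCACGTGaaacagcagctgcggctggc
Mcm2: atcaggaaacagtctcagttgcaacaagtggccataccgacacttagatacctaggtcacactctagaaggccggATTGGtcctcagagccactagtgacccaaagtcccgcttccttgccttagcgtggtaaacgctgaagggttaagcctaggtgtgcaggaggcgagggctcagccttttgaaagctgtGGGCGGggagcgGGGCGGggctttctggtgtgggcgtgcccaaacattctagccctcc
Mcm3: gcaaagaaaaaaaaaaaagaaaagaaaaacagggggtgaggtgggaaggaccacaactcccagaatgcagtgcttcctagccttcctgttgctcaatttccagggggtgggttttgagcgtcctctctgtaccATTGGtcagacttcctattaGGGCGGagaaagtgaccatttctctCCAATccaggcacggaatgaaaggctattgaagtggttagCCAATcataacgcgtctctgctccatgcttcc
Mcm6: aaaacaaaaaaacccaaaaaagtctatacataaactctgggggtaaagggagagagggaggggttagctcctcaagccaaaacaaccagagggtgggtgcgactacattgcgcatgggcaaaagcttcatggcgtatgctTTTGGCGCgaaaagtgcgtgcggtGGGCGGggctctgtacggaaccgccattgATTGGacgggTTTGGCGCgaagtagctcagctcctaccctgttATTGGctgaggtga
Msh6: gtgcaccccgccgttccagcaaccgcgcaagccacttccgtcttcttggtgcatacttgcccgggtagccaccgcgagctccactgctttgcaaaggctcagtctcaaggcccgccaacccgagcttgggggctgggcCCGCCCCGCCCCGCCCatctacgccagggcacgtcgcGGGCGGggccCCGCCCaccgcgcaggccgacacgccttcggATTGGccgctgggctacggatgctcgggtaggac
Hhex held 3 GC boxes and 1 CCAAT box, and Nceh1 held 1 PU.1 motif, 1 CCAAT box and 1 E-box. Mcm2 held 1 CCAAT box and 2 GC boxes, and Mcm3 held 3 CCAAT boxes and 1 GC box. Mcm6 held 2 CCAAT boxes, 1 GC box and 2 E2F motifs, and Msh6 held 1 CCAAT box and 5 GC boxes, of which some share bases. A match is a run of letters and not a measured binding site. The untreated summits of Hhex, Nceh1 and Mcm2 lay 59 to 106, 107 to 174 and 78 to 132 bases past the start. They thus fell outside the printed bases. At Mcm3, Mcm6 and Msh6 the untreated summits ran from before the start to past it.

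How completely the lost regions vanished is shown by the number of R837 libraries that still called a summit. None of the 12 did so in 303 lost regions (29.0%), 1 did in 394 and 2 did in 349. Held regions were not split into lost and kept by a gap: 356 held regions had a summit in exactly 3 R837 libraries, just outside the limit, and 930 had one in all 12. At the limit, the highest-ranked regions just inside were those of Gramd4, Lpar6 and Engase, each with 2 R837 libraries. Just outside, each with 3, were those of Cerk, a ceramide kinase, with ranks 192 and 178 in WT and 214 and 306 in KO, of the histone pair H2ac18 and H3c14, and of Dennd4c.

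**Figure D1:**
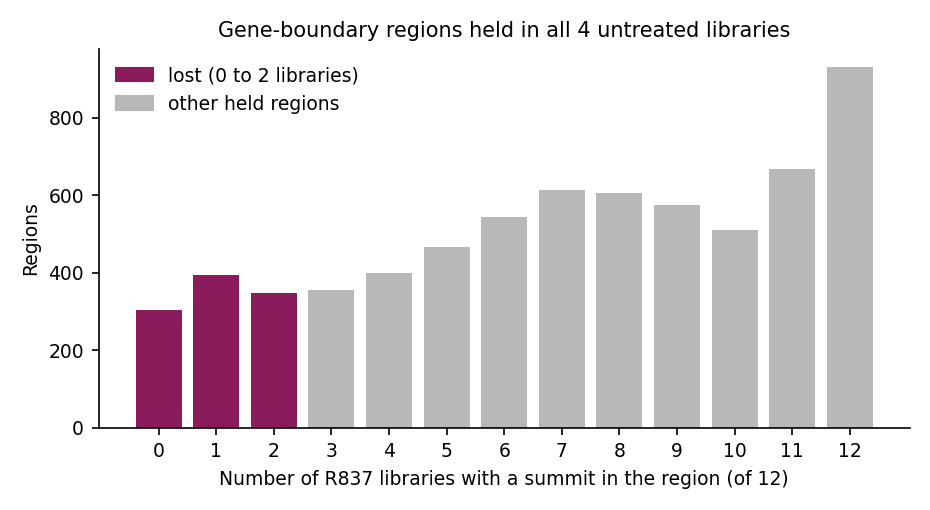
Number of gene-boundary regions held in all 4 untreated libraries (y axis, n = 6713) by how many of the 12 R837 libraries had a summit in them (x axis); dark bars are the lost regions. The counts run from 303 at 0 libraries through 349 at 2 and 356 at 3 to 930 at 12, with no gap at the limit.

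Summits were missing most often at 2 h, in lost and in all held regions alike. At 2 h, 958 of the 1046 lost regions (91.6%) had no summit in any of the 4 libraries, against 2038 of all 6713 held regions (30.4%). At 4 h it was 643 lost regions (61.5%) against 699 held regions (10.4%), and at 6 h 596 (57%) against 866 (12.9%). These summits chose the lost regions, so the gap between the sets is set by the rule. The 2 h lists were among the shorter ones, with 9402 to 13825 summits against 20607 to 24720 in untreated cells, and a shorter list holds fewer weak peaks. Codes in the deposited peak names place the 2 h and untreated libraries in one series and the 4 h and 6 h libraries in 2 others, so time and series cannot be told apart for 4 h and 6 h.

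Lost regions were mostly weak to moderate in resting cells. Summits were ranked within each list by the deposited score, with 1 the highest. The median rank of the lost regions was 10393 and 9791 in the WT libraries and 10025 and 9857 in the KO libraries. All held regions had medians of 5412, 5309, 5326 and 5162 in the same order, and the 930 regions present in all 16 libraries 1392, 1533, 1352 and 1381. Only 16, 10, 7 and 9 lost regions, respectively, were among the first 1000 summits of a list. The mean rank score puts this on one scale: it is log2 of the ratio of the shortest untreated list's length (20607, plus 1) to the rank, averaged over the 4 untreated libraries. Of 1162 held regions scoring below 1, 502 (43.2%) were lost, of 2292 between 1 and 2, 438 (19.1%), and of 1648 between 2 and 3, 76 (4.61%). Above that, 22 of 1228 regions between 3 and 5 (1.79%) and 8 of 383 at 5 or more (2.09%) were lost. Resting rank and the presence of summits after R837 thus moved together, and the part of rank in the loss was not tested. Membership also depended on list length: with every list shortened to its 8394 best summits, the same rule gave 484 lost regions, of which 118 overlapped one of the 1046. Only 120 of the 1046 had a summit in all 4 shortened untreated lists, so most were no longer held there.

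The 8 lost regions at the top of the resting ranking belonged to Cxcr4, Tmem86a, Gramd4, Hhex, Slc37a2, Zfp36l1, Cebpa and Arrdc3. Each was ranked within the first 1456 summits of all 4 untreated lists, and none had a summit in more than 2 R837 libraries. Cxcr4, the receptor for the chemokine CXCL12, had its lost region at chr1:128587564-128587624, 605 bp past the gene end. It ranked 108 and 117 in the WT libraries and 113 and 193 in the KO libraries, and no R837 library had a summit there. Of the 3 other regions of Cxcr4, none was found in more than 3 R837 libraries. Tmem86a, which encodes a lysoplasmalogenase, held a region 193 bp past its start that ranked 224 and 76 in WT and 196 and 168 in KO, and 1 R837 library (WT 4 h replicate 2) kept it. Hhex, a homeobox transcription factor of blood progenitors, ranked 753 and 104 in WT and 615 and 376 in KO at its start, and again WT 4 h replicate 2 was the sole R837 library with a summit. The 2 other regions of Hhex had no R837 summit. Slc37a2, a sugar phosphate exchanger of the endoplasmic reticulum, ranked 319 and 637 in WT and 652 and 373 in KO, and none of its 18 other regions had a summit after R837.

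At Zfp36l1, Cebpa and Arrdc3 a boundary region was lost while another region of the gene was found in 6 or more R837 libraries. Zfp36l1, which binds AU-rich elements and promotes mRNA decay, had its lost region 475 bp past the gene end, ranked 665 and 388 in WT and 336 and 1017 in KO, with no R837 summit. Another region of the gene was found in 10 of the 12 R837 libraries. Cebpa, a transcription factor of myeloid development, ranked 416 and 584 in WT and 394 and 1456 in KO at 741 bp past its end, also with no R837 summit, while another of its regions was found in 6. Arrdc3, an arrestin-domain protein, lost regions at both its start and its end, and a further region was found in 7 R837 libraries.

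The other 16 of the 24 highest-ranked regions belonged to genes of varied function. Nceh1 hydrolyses cholesteryl esters, Alox5ap presents arachidonic acid for leukotriene synthesis, and Galc and Sgsh degrade galactolipids and heparan sulfate in the lysosome. Nceh1 ranked 1906 and 1843 in WT and 1250 and 786 in KO, with no R837 summit. Alox5ap ranked 1301 and 190 in WT and 2151 and 1454 in KO, with none either. Galc ranked 774 and 3631 in WT and 1052 and 1192 in KO, and KO 6 h replicate 2 alone retained it. Sgsh, whose region lies near Slc26a11 as well, ranked 804 and 2522 in WT and 1726 and 2756 in KO, with summits in 2 KO libraries. The growth factor gene Hgf ranked 871 and 1002 in WT and 2169 and 1110 in KO. No other region was called in Hgf, and KO 4 h replicate 2 was the sole R837 library with a summit. The lipid receptor gene Lpar6 ranked 614 and 300 in WT and 1554 and 1180 in KO, with summits in 2 KO libraries. Engase, Paqr7, Adssl1, Mknk2, Laptm5, Tmem37, Pald1, Ctla2b, Slc43a2 and Ints6l made up the rest, and Gramd4 was kept in 2 of the 6 h libraries. In 7 of the 24 regions the untreated WT and KO ranks did not overlap: both WT libraries ranked ahead in Gramd4, Lpar6, Alox5ap, Hgf, Tmem37 and Ctla2b, and both KO libraries in Nceh1. Over all 6713 held regions 34.2% had ranks that did not overlap, and over the 1046 lost regions 350 did (33.5%; WT ahead in 173 and KO in 177).

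**Figure D2:**
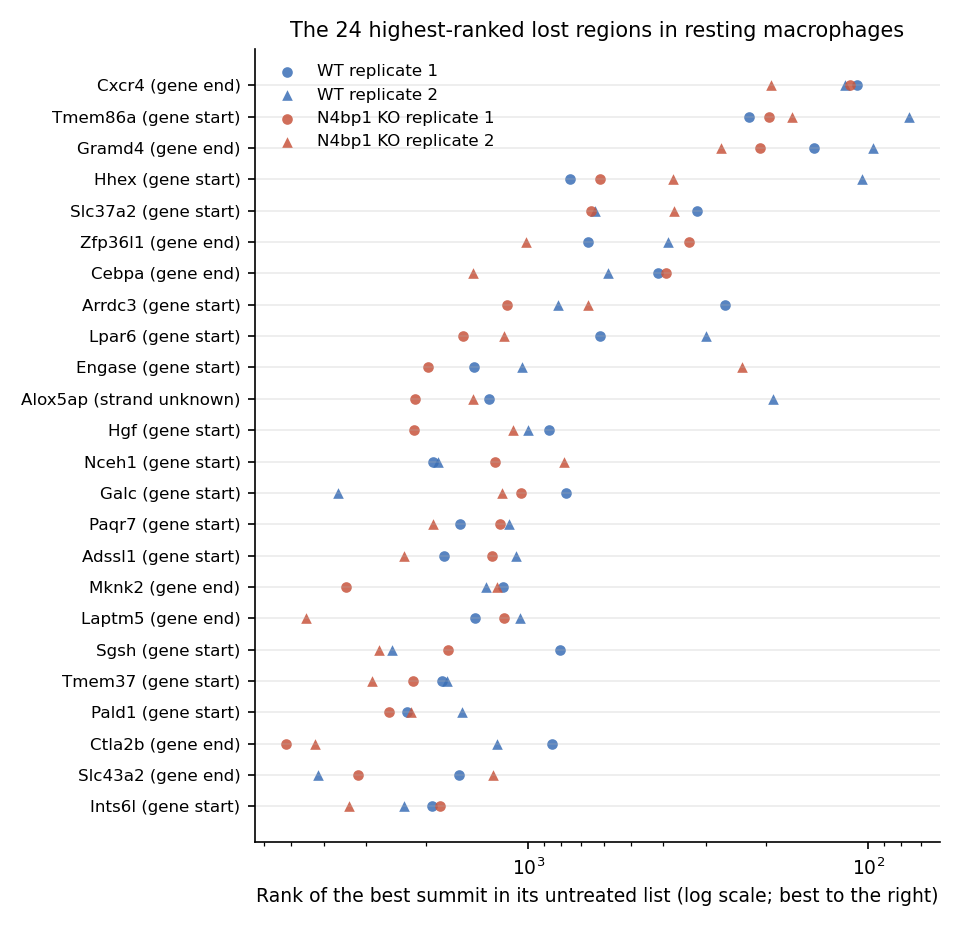
Rank of the best summit in each of the 4 untreated libraries (log axis, best to the right) for the 24 lost regions with the highest mean rank score, with the nearest gene boundary in brackets. Circles and triangles are replicates 1 and 2, blue is WT and red is N4bp1 KO; Cxcr4 lies between 108 and 193 and the lowest of the 24, Ints6l, between 1824 and 3371.

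Among the functional gene lists, leaving aside families grouped by symbol, cell cycle genes had the highest share of lost regions with the lists as deposited. Of 29 cell cycle genes with a held gene-boundary region, 12 had a lost one (41.4%), beside 15.4% of all genes with a held region. They were the cyclins Ccna2, Ccnd3 and Ccne1, the kinases Cdk4 and Plk1, the phosphatase Cdc25b, which activates cyclin-dependent kinases, the E2F factors E2f2 and E2f8, the retinoblastoma proteins Rb1 and Rbl1, which bind E2F factors, and the helicase subunits Mcm2 and Mcm3. At Ccnd3 and Cdk4 the lost region lay at the gene end, that of Cdk4 also near Tspan31, and another region of the gene stayed in up to 7 and up to 11 R837 libraries. For the other 10 genes no further region was found in more than 2 R837 libraries.

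Ranks of the cell cycle regions were moderate to low in resting cells. Mcm3, a subunit of the replicative helicase, ranked 5442 and 9165 in WT and 5821 and 7543 in KO, and after R837 had summits in both KO 4 h libraries. Mcm2, of the same helicase, ranked 6785 and 9564 in WT and 7978 and 10020 in KO, and was retained in KO 6 h replicate 2 alone. Ccne1, the cyclin of the G1 to S transition, ranked 12883 and 9416 in WT and 15652 and 6912 in KO. The WT and KO ranks overlapped in all 3. E2f2, an E2F family activator, ranked 8845 and 13927 in WT and 8613 and 5280 in KO, with both KO libraries ahead, and had no R837 summit in its region. E2f8, an E2F family repressor, and Rb1 each lost 2 regions. All lost cell cycle regions had a mean rank score under 2. Below 1, where 43.2% of held regions were lost, all 7 cell cycle regions were, and between 1 and 2, where 19.1% were lost, 7 of 19 were. None of the 8 cell cycle regions scoring 2 or more was lost. In the shortened lists the order differed: 2 of 8 cell cycle genes with a held region had a lost one (25%), against 5 of 13 for TGF-beta and growth factors (38.5%), 4 of 11 for G protein and chemokine receptors (36.4%) and 13.8% of all genes.

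Genes of DNA replication and mismatch repair, kinesins and histone genes were looked at further after their names were seen. Their counts stand beside the 15.4% of all genes. Of 8 genes of the MCM family with a held region, Mcm2, Mcm3, Mcm6 and Mcm9 had a lost region. Msh6, which recognises mismatched bases, had one as well. Mcm6 ranked 7884 and 8638 in WT and 10578 and 4051 in KO, and Msh6 ranked 4064 and 6705 in WT and 3325 and 13340 in KO. Neither had an R837 summit. Of 19 kinesins, motor proteins of which several act in mitosis, 6 had a lost region: Kif2a, Kif13b, Kif16b, Kif18b, Kif20b and Kif21b. Of 57 clustered histone genes, 13 did, sharing 10 regions. Histone genes are near-identical copies and lie close together, so their reads and regions cannot be assigned to single genes with certainty. The lost regions of Mcm2, Mcm3, Mcm6 and Mcm9 had mean rank scores of 1.28, 1.591, 1.487 and 0.568. Of all held regions, 43.2% scoring below 1 and 19.1% between 1 and 2 were lost. In the shortened lists, 0 of 2 MCM genes, 1 of 8 kinesins (12.5%) and 10 of 52 histone genes (19.2%) had a lost region, beside 13.8% of all genes.

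In the TGF-beta and growth factor list, 10 of 32 genes had a lost region (31.2%). Smad3, with Smad2 a signal-carrying SMAD, Smad4, their common partner, and Smad7, the inhibitor, were all among them, and so were Tgif1, a SMAD corepressor, the growth factor Igf1, the insulin receptor Insr, the lipid phosphatase Inpp5d, the transcription factor Foxo1 and the signalling inhibitor Spry2. Smad4 ranked 10385 and 14609 in WT and 18020 and 7928 in KO, and had no R837 summit. Smad2 ranked 6198 and 5744 in WT and 7459 and 3820 in KO, and kept a summit in WT 4 h replicate 2 and KO 4 h replicate 2. Foxo1, an effector of insulin signalling, ranked 6338 and 12696 in WT and 11322 and 6073 in KO, with no R837 summit. WT and KO overlapped in these 3 regions. At Smad7, Inpp5d, Igf1 and Tgif1 another region was found in up to 6, 7, 10 and 11 R837 libraries, in that order. The 10 lost regions of the list all scored under 2, where 24 of its 38 held regions lay.

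Receptors and surface proteins of the resting macrophage were represented at shares nearer to that of all genes. Of 18 genes of G protein and chemokine receptor signalling, 3 had a lost region: Cxcr4, Gpr65, a proton-sensing receptor, and S1pr1, a receptor for sphingosine 1-phosphate. Gpr65 ranked 1978 and 2965 in WT and 4573 and 3332 in KO, with both WT libraries ahead, and none of its regions had an R837 summit. Of 22 macrophage identity genes, 4 did: Mertk, a receptor for apoptotic cells, Trem2, a lipid-sensing receptor, the tetraspanin Cd9 and the fatty acid binding protein Fabp5. Mertk ranked 12768 and 2897 in WT and 4111 and 7652 in KO, with no R837 summit there and at most 2 R837 libraries with a summit in any of its 9 other regions. Of 24 lysosomal genes, Ctss, Laptm5, Npc1, Tfeb and Tpcn1 had a lost region (20.8%), that of Tpcn1 also near Slc8b1. Ctss lost its gene-end region, while another of its 24 regions was found in all 12 R837 libraries.

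Genes of Toll-like receptor, NF-kB kinase and caspase-8 signalling were represented at about the background share, 4 of 26 (15.4%). The list includes receptors for ligands other than R837, and Tlr7 itself had no held region. Those with a lost region were Tlr9 and Tlr13, which sense DNA and bacterial RNA, Fadd, the adaptor of caspase-8, and Otulin, a linear ubiquitin peptidase. All 4 lost regions were nearest to the gene end. Other regions of Fadd and Otulin were found in up to 11 and up to 7 R837 libraries. For mRNA decay, 4 of 27 genes had a lost region (Zfp36l1, Cnot2, Cnot6 and Tob2). The counts were 3 of 27 for chromatin regulators (Dnmt3a, Kat6a and Kmt2c) and 3 of 26 for Rab GTPases (Rab2a, Rab3d and Rab3il1). They were 1 of 10 for sterol synthesis (Srebf1, in a region also near Rai1), 1 of 21 for myeloid transcription factors (Cebpa) and 1 of 14 for immediate early genes (Nr4a2). No lost region was found among 13 genes of the NF-kB primary response, 10 interferon-stimulated genes or 23 genes of oxidative phosphorylation. The same held for 76 ribosomal protein genes and 41 proteasome genes, families counted after the data were seen. Of 37 NDUF genes, subunits and assembly factors of respiratory complex I and also counted afterwards, 4 had a lost region (Ndufaf4, Ndufaf6, Ndufb9 and Ndufc2). The median number of R837 libraries with a summit was 12 for the held regions of ribosomal protein genes and 10 for those of proteasome genes, against 7.0 for all held regions.

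**Figure D3:**
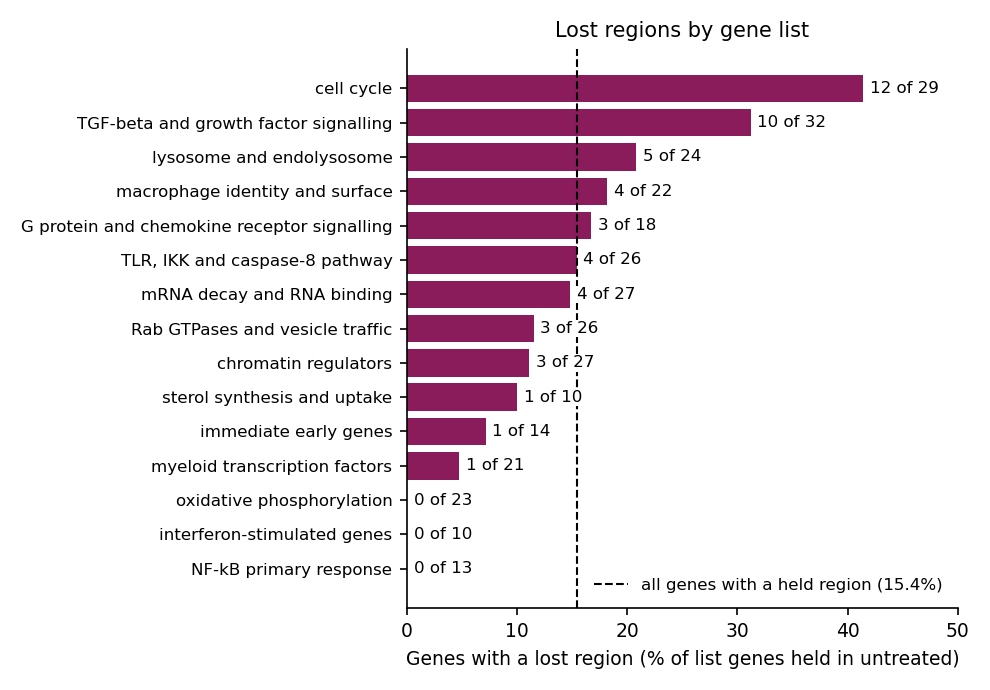
Share of genes with a lost region among the genes of each list that had a held gene-boundary region (bars, with counts beside them); the dashed line is the share over all such genes, 15.4%. Cell cycle (12 of 29) and TGF-beta and growth factor signalling (10 of 32) lie furthest to the right, and 3 lists are at 0.

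By position, the lost regions were mostly at gene starts. Among 836 lost regions whose nearest gene had a known strand, 687 (82.2%) were nearest to a gene start and 149 (17.8%) to a gene end. Gene ends took a smaller share of all held regions, 580 of 5527 (10.5%), and the same share, 17.8%, of the regions present in all 16 libraries. At starts, the median midpoint lay 110.0 bp downstream of the annotated start, close to the 105.5 bp of all held regions. Lost regions were narrower, with a median span of 338 bp against 533 bp for all held and 862 bp for those in all 16 libraries, and span grows with the number of libraries pooled into a region. They were also more often near a single gene: 12.2% were linked to 2 or more genes, against 20.6% and 28.3%.

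**Figure D4:**
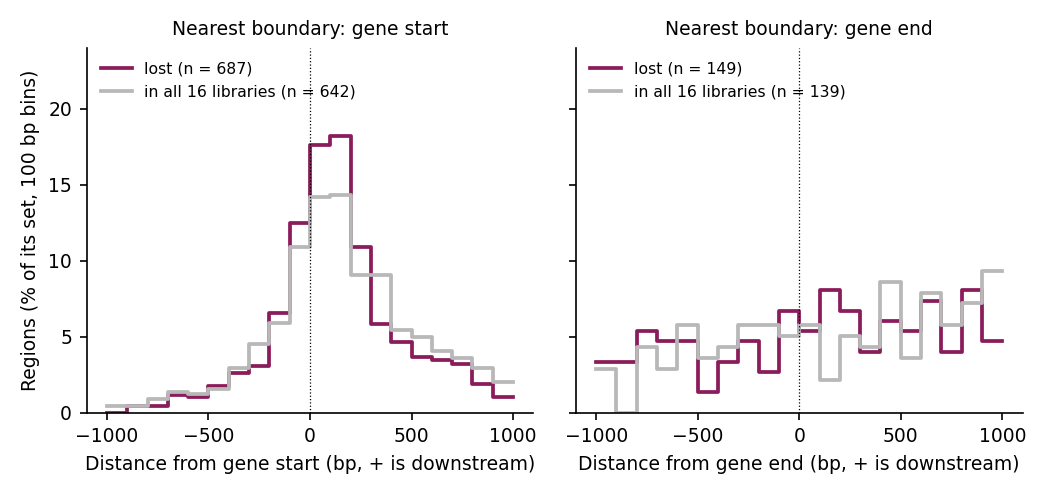
Distance of region midpoints from the nearest gene start (left) or gene end (right), in 100 bp bins as a percentage of each set, for lost regions and for regions in all 16 libraries. Both sets peak within 200 bp downstream of the start and show no such peak at the gene end.

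Losing a gene-boundary region did not always mean that the gene was left without summits. For 390 lost regions (37.3%) the linked genes held no other region, and for another 312 (29.8%) none of the other regions was in more than 2 R837 libraries. For 229 (21.9%) another region of a linked gene was in 6 or more R837 libraries, and for 43 of these in all 12. This split by position: another region persisted in 6 or more R837 libraries for 97 of the 149 lost regions at gene ends, but for 90 of the 687 at gene starts. These counts were not made for all held regions. Whether the shares or the split are particular to lost regions is therefore not known. Loss at both boundaries was seen in 20 genes, among them Arrdc3, Gpr146, Itgb5, Mid1ip1, Rassf2 and Cux1. In all, 50 genes had 2 or more lost regions and Cux1, Itgb5, Olfml3 and Otud7b had 3 each. Some of these regions lay at the same gene start, as at E2f8, Zbtb2, Usp24 and Hmgn1. The genes that held regions at both boundaries, or several regions, were not counted, so these numbers have no background share. Itgb5, an integrin subunit, lost regions 231 bp before and 791.5 bp after its start and 568.5 bp past its end, with no R837 summit in the first and the last.

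Promoter sequence was available for 664 windows of 300 bases, from 250 before to 50 after a start, that lay at lost regions. CCAAT boxes were as common in them (40.7%) as in windows of all held regions (40.6%) and of regions in all 16 libraries (40.8%), and 38.2% of all 21263 promoter windows had one. GC boxes were in 74.5%, 70.6%, 69.2% and 46.2%, in the same order. The ETS motif (CCGGAAGT) was in 5.12% of the windows of lost regions, 11.6% of held and 14.3% of those in all 16 libraries, against 5.15% of all windows. TATAAA was in 5.27%, 6.32%, 11.2% and 12.6%, and the E-box in 7.98%, 11.8%, 10.9% and 7.84%. The E2F motif, added after the data were seen, was in 6.17% of lost, 6.43% of held, 5.06% of those in all 16 libraries and 3.44% of all windows. It was in 3 of the 10 windows at lost regions of the cell cycle list and the MCM family, 8 of which had a CCAAT box and 9 a GC box. The NF-kB motif was in 13.4% of the windows of lost regions, 12.1% of held and 10.7% of all, and the interferon response element in 1.96%, 2.9% and 3.35%. The PU.1 motif was in 1.96% of lost, 3.28% of held and 3.13% of all windows, and the NRF1 motif (GCGCATGC) in 5.27%, 7.16% and 3.52%. AP-1 (TGANTCA) was in 4.07%, 3.86% and 6.99%, CRE (TGACGTCA) in 3.46%, 4.18% and 2.23%, and C/EBP (TTGCGCAA) in 0.301%, 0.449% and 0.221%. Motifs were searched on both strands and may overlap, GC box and E2F motif in particular.

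The untreated WT and KO libraries were compared in a fit over 18115 regions with a summit in at least 2 untreated libraries (limma on the rank score). The rule required a summit of a lost region in all 4 untreated libraries, which removes regions absent from 1 genotype, so the counts for lost regions are a description. The fit called 2 regions at a limma adjusted p under 0.05 (0.011%), 1 higher and 1 lower in KO, and neither was a lost region. The smallest limma adjusted p among the 1046 lost regions was 0.837. At an unadjusted p under 0.05 there were 29 lost regions, 13 higher and 16 lower in KO, and 943 of all regions tested (5.21%). The median difference, KO minus WT, was -0.0053 on the log2 rank scale for the lost regions and -0.00484 for all regions tested. A fit of all 16 libraries called 270 of 15767 regions (1.71%), among them 44 of the 496 lost regions it tested. In that fit the R837 libraries, where lost regions by construction mostly have no summit, enter the estimate of the spread. With 2 libraries a group, the absence of a call does not show that the genotypes were alike.

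After R837, the few summits left in lost regions lay mostly in KO libraries. At 2 h, 11 and 16 of the 1046 regions had a summit in the WT libraries and 62 and 5 in the KO libraries. At 4 h the counts were 19 and 80 in WT and 188 and 197 in KO, and at 6 h 23 and 2 in WT and 74 and 415 in KO. Both KO libraries were above both WT libraries at 4 h and 6 h, and the genotypes overlapped at 2 h. A summit in at least 1 KO library was found in 695 lost regions, and in at least 1 WT library in 144. The KO libraries held 156.8 ± 147.1 residual regions (SD, n = 6) and the WT libraries 25.2 ± 27.8 (SD, n = 6). The difference between the means was 131.7. These counts are made of the R837 summits that the rule used, although it did not use the genotype, so they are given as a description with no test.

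Residual counts moved with the length of the deposited lists, which was greater in KO: 24671 and 25612 summits at 4 h and 22157 and 29760 at 6 h, against 16391 and 19710, and 17007 and 8394, in WT. All held regions were likewise found more often in KO, 5457 and 5408 times at 4 h against 3902 and 4822 in WT. Counted only among the 8394 best summits of each list, the difference between the means was 16.7. KO 6 h replicate 2 held 415 of the 1092 residual summits and was the sole R837 library with a summit in 202 lost regions. Its list was the longest, and its scores reached 563.5 where those of the other libraries reached at most 320.4. At most 0.0874% of its score values were also found in any 1 other list. For the other lists the highest such share was 39.9% to 96.7%, and the reason was not tested. Without KO 6 h replicate 2 the difference was 74.8. The later times, 4 h and 6 h, held 124.8 ± 138.7 residual regions (SD, n = 8) and 2 h held 23.5 ± 26.1 (SD, n = 4), a difference of 101.2 that was smaller than the spread among the later libraries. Among the 8394 best summits of each list this difference between times was 5.9.

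**Figure D5:**
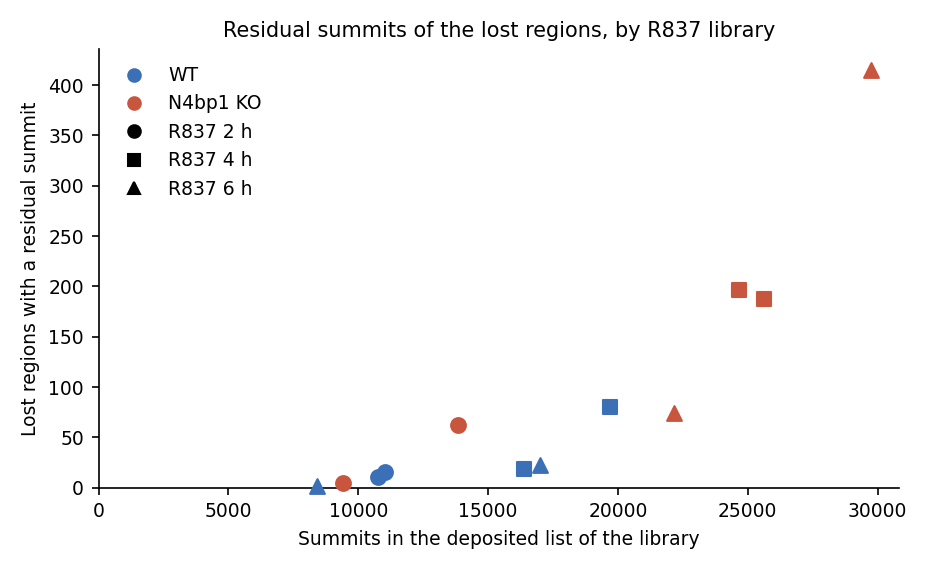
Number of the 1046 lost regions with a residual summit (y axis) against the number of summits in the list (x axis) for each of the 12 R837 libraries; colour is genotype and symbol is time. Counts run from 2 to 415, and libraries with longer lists, mostly KO, lie higher.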

How the data were processed

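Polymerase II ChIP-seq libraries were sequenced as 75 nt single-end reads, per the labels' protocols. GSNAP, MACS2 and GRCm38 are named in the submitters' processing notes. Versions, threshold and scaling are not given in the sources used here. A deposited list holds the 1 bp summits of 1 library with the authors' score, a −log10 value of either p or q (not stated which), used here for ranking alone. The lists give no read counts, so depth is unknown and counting error cannot be given. Lists held 8394 to 29760 summits. The listed Input sample was not analysed here.

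Regions were built as described above (chaining 500 bp, boundary 1 kb) with RefSeq genes (GRCm38.p6, 21900 protein-coding, 17492 with a known strand; where it was unknown, start and end were not told apart). Python 3.11.15 was used, with limma 3.58.1 in R 4.3.3 (variance trend, Benjamini-Hochberg adjustment, all regions with a summit in at least 2 untreated libraries). Rank scores used lists shortened to 20607 summits, except where stated. Whether the 2 libraries of a group are separate cultures or animals is not stated in the labels, and p-values therefore reflect library-to-library spread, possibly technical. Scripts were tested on simulated data. There the untreated genotype fit called 0 of 100 regions shifted by 3 on the log2 rank scale. It called 58 of 100 shifted by 6 and 0 of 17915 unshifted regions. Regions and gene lists were chosen with earlier results of these data known. Genes named were the 24 lost regions of highest mean rank score, list genes with a lost region, lost regions called between genotypes (none), genes with several lost regions and 3 regions on each side of the limit; the families were added after their values were seen. Alternatives changed the chaining, boundary, limit on R837 libraries, list length, filter, model and libraries, 1 at a time. The fit of all 16 libraries was an exception and changed libraries, list length, filter and model together. Results on some items are not reported here.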

Additional observations from a re-analysis of the deposited data

Results flagged for a closer look

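The genotypes differed in the residual summits of lost regions: KO libraries held 131.7 more residual regions than WT libraries on average. The rule used these same summits, so the planned test supports nothing, and after adjustment over the 2 tests it did not pass (exact permutation, adjusted p = 0.0556). Mean differences were 20 at 2 h, 143.0 at 4 h and 232.0 at 6 h. The 2 h difference rests on KO replicate 1 (62 regions), since KO replicate 2 held 5 and the WT libraries 11 and 16. As a share of the held regions found in each library, residual regions were 2.96% ± 2.54 in KO and 0.65% ± 0.53 in WT (SD, n = 6 each), a measure chosen after seeing the data. It ran from 0.22% to 7.42% in KO and from 0.13% to 1.66% in WT, and was highest in KO 6 h replicate 2, the longest list. The share was not corrected for list length, which was greater in KO at 4 h and 6 h.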

How the results depend on the processing

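The set of lost regions depends on the length of the lists. With every list shortened to 8394 summits, 484 regions were lost, of which 118 overlapped one of the 1046, and 149 of their 544 genes were among the 1122. Only 120 of the 1046 had a summit in all 4 shortened untreated lists. In the shortened lists 14.3% of held regions were lost. Of these lost regions, 91.6% of those with a strand were at gene starts, and 72.1% had no 2 h summit. The cell cycle list then gave 2 of 8 genes, the TGF-beta list 5 of 13, the G protein list 4 of 11 and the proteasome family 1 of 27, beside 544 of 3940 genes (13.8%). With at most 1 R837 library allowed, 697 regions were lost (10.4% of held, 78.9% at starts, 96% without a 2 h summit). Cell cycle genes were then 8 of 29 (27.6%) and TGF-beta genes 5 of 32 (15.6%), beside 744 of all 7288 genes (10.2%). With at most 3, 20.9% of held regions were lost, 84.8% at starts and 86.7% without a 2 h summit. The share lost was 16.7% with chaining at 250 bp, 14.5% with a boundary of 500 bp and 16.5% with 2 kb, and the share at starts 86.8% with chaining at 1000 bp and 88.7% and 77.3% with these boundaries. Leaving out 1 library gave 1050 to 1336 lost regions, 15.6% to 19.3% of held, 80.3% to 84.8% at starts and 89.2% to 96.4% without a 2 h summit. Then 12 to 17 cell cycle and 10 to 12 TGF-beta genes had a lost region, beside 1127 to 1419 of all genes. The lost regions called between untreated genotypes stayed at 0 except in the fit of all 16 libraries. That fit, on lists shortened to 8394 summits, called 270 of 15767 regions, and 44 of the 496 lost regions tested. No filter and chaining at 250 bp called 0 regions with limma (698 and 1105 at an unadjusted p under 0.05), and leaving out 1 library 25 to 51. A replicate block called 53 regions, none a lost region. In untreated cells, replicate numbers did not pair the WT and KO libraries (r = 0.0169), and pairing after R837 was not examined. The planned tests of residual summits draw on summits the rule used and support nothing. KO minus WT was 131.7 (exact permutation p = 0.0278, 216 relabellings, adjusted 0.0556), and with the replicate block 131.7 (exact permutation p = 0.0625), 16.7 in shortened lists (p = 0.0741, exact permutation), and 74.8 to 188.5 without 1 library (exact permutation p 0.00926 to 0.139). It missed 0.05 without KO 2 h replicate 1 or either WT 6 h replicate. The 4 h and 6 h minus 2 h difference was 101.2 (exact permutation p = 0.12, adjusted 0.12) and 68.5 to 125.3 without 1 library. In shortened lists it was 5.9 (exact permutation p = 0.813). As a share of held regions found, chosen after seeing the data, the differences were 2.31 and 1.71 percentage points (exact permutation p = 0.0278 and 0.151). The causes were not tested, and depth, which sets how many weak peaks a list holds, is unknown.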

Other observations

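Some lost regions lay close to miRNA genes of the RefSeq annotation. The share over all held regions was not counted, so this does not set lost regions apart. Mir7075 lay 247 bp from the lost region of Terf2, a telomere-binding protein, and Mir6410 lay 889 bp from that of Pdxk, pyridoxal kinase. Mir1199, Mir5135 and Mir6921 were within 1 kb of the lost regions of Misp3, Plekhg3 and Rai1. The region of Rai1 is the same as the lost region of Srebf1. The regions near Mir6410 and Mir1199 had no R837 summit, those near Mir5135 and Mir7075 had 1 and that near Mir6921 had 2.

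Neighbouring regions were also counted, midpoint to midpoint. Another region found in 6 or more R837 libraries lay within 2 kb of 56 lost regions (5.35%), against 146 of the 930 regions present in all 16 libraries (15.7%). Within 1 kb the counts were 19 lost regions (1.82%) and 13 of the 930 (1.4%). Of the 1122 genes with a lost region, 27 also had a gene-boundary region in all 16 libraries. Of the 7288 genes with a held region, 1119 had one. A gene with a lost region needs a second region to be counted, so the 2 shares are not alike.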
